A study of Mus musculus with 16 samples.

Results

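Mcpt1 and Cma1, which encode chymases of mast cell granules, C1qb and Csf1r, which mark macrophages, and Csf2, which encodes the cytokine GM-CSF, were followed across the colon arrays of 4 groups of mice. The 5 genes were taken by symbol from the 3630 distinct gene symbols that the deposited tables name. Mcpt1 (cluster 6819292) and C1qb (cluster 6926165) had values among the 23332 transcript clusters, which are sets of probes taken to belong to 1 transcript. Cma1, Csf1r and Csf2 had values only in a gene-level table of 1793 genes, which also held Mcpt1 and C1qb. The authors had chosen all genes of that table for a p-value under 0.05 in their own test over the TadA mutant, UCC2003 and GF arrays, so p-values between those groups are not independent of the choice. The deposited p-values were 0.0443 for Mcpt1, 0.0247 for Cma1, 0.0264 for C1qb, 0.0428 for Csf1r and 0.00296 for Csf2.

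RNA came from the colon of mice of the outbred Swiss Webster stock, and all 4 groups started from germ-free animals. The CONV mice had been given a conventional microbiota again, and their design text counts 5 animals, of which 4 arrays were used here. The TadA mutant mice carried only a Bifidobacterium strain with a mutation in TadA, a gene of the bacterial locus for tight adherence pili. The UCC2003 mice carried only Bifidobacterium UCC2003, and the GF mice stayed germ-free. Each group had 4 arrays, labelled as biological replicates. The labels give no age, sex, cage, litter or length of colonisation, so animals that shared an isolator cannot be told apart from animals that shared a treatment.

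Mast cells store serine proteases, the chymases and tryptases, in granules and release them on activation. In rodents, mucosal mast cells of the gut are known for beta-chymases such as the product of Mcpt1, while connective tissue mast cells carry the product of Cma1 together with carboxypeptidase A3. Macrophages of the gut wall depend on signalling through the receptor encoded by Csf1r, and they are a main source of the complement protein C1q. GM-CSF acts on macrophages and dendritic cells, and in the gut it is made by innate lymphoid cells, T cells and other cells.

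Values are log2 intensities, on which a difference of 1 is a doubling. Array medians lay between 5.91 and 6.03, and pairs of arrays correlated at 0.938 to 0.979 over all clusters. Of the 15 listed markers of colon epithelium only Krt20, a keratin of mature surface cells, had a named value, and its group means lay between 11.06 and 11.55. Pancreatic transcripts were abundant on 2 CONV, 1 TadA mutant, 2 UCC2003 and 3 GF arrays. These were the arrays whose value of the pancreatic gene Cpa1 exceeded 8.84, midway between its lowest and highest values. TadA mutant replicate 4 was intermediate, at 7.49 for Cpa1 and 6.50 for the pancreatic gene Cel, and was counted with the arrays without them. In the gene-level table a column names its group without a replicate number, so the labels do not match a column to an array. A match by values was not tested. Levels are given within a gene, because intensities of different probes cannot be ranked against each other. In whole tissue, fewer cells of a type and less RNA per cell cannot be told apart.

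Mcpt1 encodes mast cell protease 1, a beta-chymase known from mucosal mast cells of the mouse intestine. Its gene (ENSMUSG00000022227) lies on the plus strand of chromosome 14, in the same chymase locus as Cma1 (ENSMUSG00000022225), which lies on the minus strand with 3 annotated genes or pseudogenes between them. The 250 bases before the start of Mcpt1 (RefSeq, GRCm38.p6, chr14:56017714-56017963, plus strand) and of Cma1 (chr14:55944676-55944925, minus strand) are shown because these neighbours had different patterns over the groups, and those of the mast cell carboxypeptidase gene Cpa3 (chr3:20242182-20242431, minus strand) because its mean, like that of Cma1, was highest in UCC2003. Capitals mark the letters GATAA, or TTATC where they lie on the other strand, the core bound by GATA factors such as the mast cell regulator GATA2.
Mcpt1: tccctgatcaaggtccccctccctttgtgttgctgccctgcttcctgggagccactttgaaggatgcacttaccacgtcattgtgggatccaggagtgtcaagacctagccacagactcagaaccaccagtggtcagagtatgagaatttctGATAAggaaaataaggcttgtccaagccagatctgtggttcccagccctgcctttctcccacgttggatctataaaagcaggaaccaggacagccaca
Cma1: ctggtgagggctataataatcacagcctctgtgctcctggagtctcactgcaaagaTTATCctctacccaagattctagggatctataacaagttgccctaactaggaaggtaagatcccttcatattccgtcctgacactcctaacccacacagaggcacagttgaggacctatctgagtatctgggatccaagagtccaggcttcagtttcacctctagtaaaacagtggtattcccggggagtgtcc
Cpa3: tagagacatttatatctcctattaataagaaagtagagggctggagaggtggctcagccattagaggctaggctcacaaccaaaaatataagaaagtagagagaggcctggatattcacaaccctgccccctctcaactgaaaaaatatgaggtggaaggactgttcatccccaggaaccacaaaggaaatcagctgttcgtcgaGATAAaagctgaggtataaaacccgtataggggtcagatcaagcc
Each of these promoters held 1 match, starting 98 bases before the gene in Mcpt1, 194 in Cma1 and 45 in Cpa3. A match on either strand was present in 22.6% of 32851 RefSeq promoter windows of that length, and it describes the letters only.

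The 4 CONV arrays read 5.22, 5.75, 5.37 and 5.33 for Mcpt1, and the TadA mutant arrays 6.0, 5.41, 5.67 and 5.53. The UCC2003 arrays read 5.29, 5.05, 5.54 and 5.01, and the GF arrays 4.93, 5.16, 5.00 and 4.98. All TadA mutant and all CONV arrays lay above every GF array, whereas 2 UCC2003 arrays lay within the GF range. Group means were 5.42 ± 0.23 in CONV, 5.65 ± 0.25 in TadA mutant, 5.22 ± 0.25 in UCC2003 and 5.02 ± 0.10 in GF (SD, n = 4 each). The TadA mutant mean exceeded the GF mean by 0.63 ± 0.15 log2 units (SE, 1.55-fold). This was the 21st smallest p-value of the 23332 clusters, but it did not pass the threshold of 0.05 (limma adjusted p = 0.748), and an exact permutation test of this value alone gave p = 0.0286, the smallest that 4 arrays against 4 allow. Mcpt1 was also among the genes that the authors chose by a test including both groups, which favoured a high rank and a small p-value here. No cluster passed in TadA mutant against GF by limma (0%), and 1403 had an unadjusted p under 0.05. CONV exceeded GF by 0.40 ± 0.15 (adjusted p = 0.242, exact permutation p = 0.0286), and UCC2003 exceeded GF by 0.20 ± 0.15 (adjusted p = 0.707, exact permutation p = 0.171). Between TadA mutant and UCC2003 the difference was 0.43 ± 0.15 with overlapping arrays (adjusted p = 1.000, exact permutation p = 0.0857). The order of the means was therefore TadA mutant, CONV, UCC2003, GF, and no 2 neighbours in it differed beyond their spread.

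In the gene-level table the same gene gave smaller differences from GF, 0.16 ± 0.13 in CONV, 0.43 ± 0.13 in TadA mutant and 0.17 ± 0.13 in UCC2003. There the CONV columns overlapped the GF columns, while the TadA mutant columns did not. The authors' deposited table lists Mcpt1 in GF over TadA mutant at a signed fold of -1.57, in which a minus sign means lower in GF, with p = 0.00476 and an adjusted p of 0.784. On arrays with pancreatic transcripts Mcpt1 read 5.41 on the 1 TadA mutant array and averaged 5.05 on 3 GF arrays, and on the others it averaged 5.73 on 3 TadA mutant arrays against 4.93 on the 1 GF array. Those 3 TadA mutant arrays included replicate 4, whose pancreatic transcripts were at an intermediate level.

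Cma1, which encodes the chymase known as mouse mast cell protease 5, showed another pattern. Its CONV columns read 5.73, 5.74, 5.72 and 5.48, and its TadA mutant columns 5.44, 5.67, 5.26 and 6.22. The UCC2003 columns read 6.36, 6.13, 6.13 and 6.10, and the GF columns 5.56, 5.60, 5.57 and 5.61. All UCC2003 columns lay above all CONV and GF columns, and 1 TadA mutant column reached their range. Means were 5.67 ± 0.12 in CONV, 5.65 ± 0.42 in TadA mutant, 6.18 ± 0.12 in UCC2003 and 5.59 ± 0.025 in GF (SD, n = 4 each), so that CONV, TadA mutant and GF could not be ordered beyond their spread. UCC2003 exceeded GF by 0.59 ± 0.15 log2 units (SE, 1.51-fold, adjusted p = 0.427 by limma over 35860 tests, exact permutation p = 0.0286). The difference of TadA mutant minus UCC2003 was -0.53 ± 0.15 (adjusted p = 1, exact permutation p = 0.114), and it was -0.72 without TadA mutant column 4. CONV minus UCC2003 was -0.51 ± 0.15 (adjusted p = 0.520, exact permutation p = 0.0286). The median gene of the table differed by -0.10 in UCC2003 minus GF, and with every column centred on its median Cma1 differed by 0.62.

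Smooth muscle transcripts also differed in level between these groups. Of 5 genes, limma called 3 lower in CONV than in UCC2003, beside 1.51% of all gene-level genes called lower. In UCC2003 against GF it called 0 of the 5, beside 0.279% of all gene-level genes. There all 5 had a p under 0.05 before adjustment, beside 54.3% of genes that the authors had chosen by a test including both groups. The mean level of the 5 of 13 smooth muscle genes in the gene-level table ran from 7.90 to 8.15 over the CONV columns, from 8.38 to 9.03 in TadA mutant, from 8.87 to 9.11 in UCC2003 and from 8.08 to 8.55 in GF. With that level as a covariate the UCC2003 minus GF difference of Cma1 was 0.69, and its part in that difference was not tested further.

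**Figure D1:**
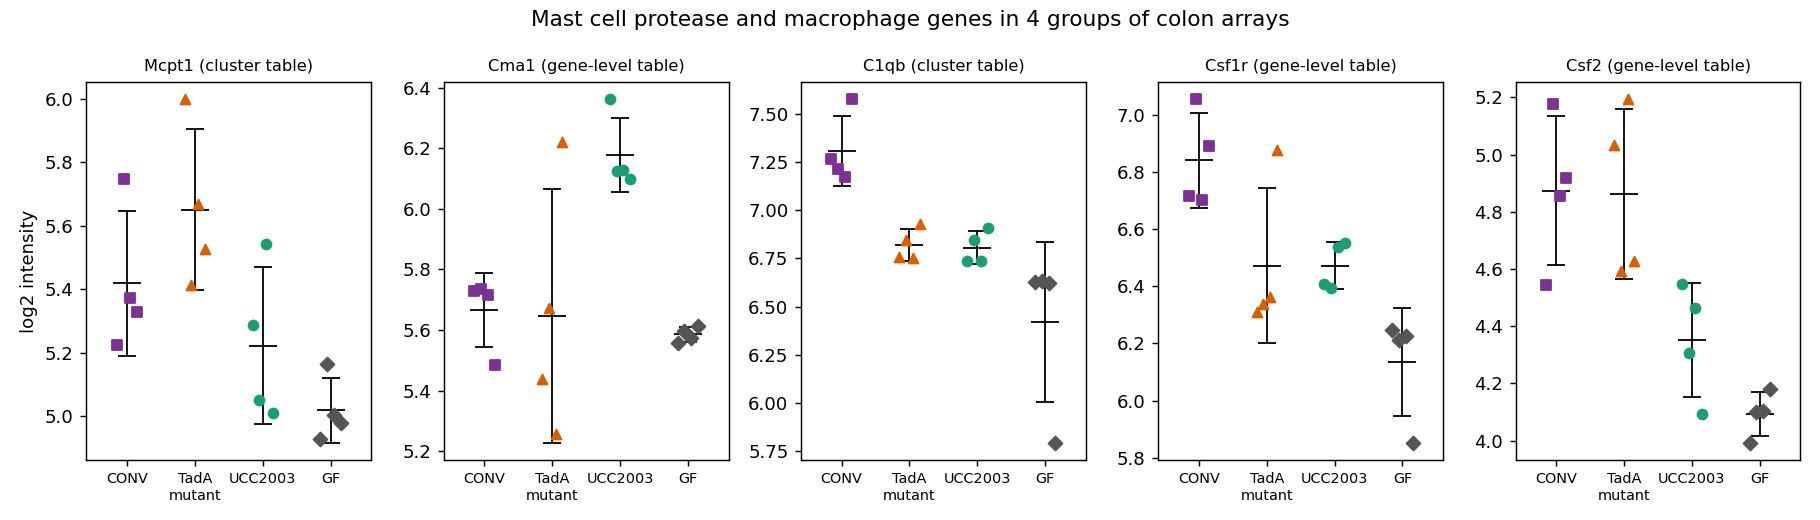
Log2 intensity of Mcpt1, Cma1, C1qb, Csf1r and Csf2 on each array or column (points), by group from CONV to GF, with the mean and SD as bars (n = 4 each). Mcpt1 and Csf2 were highest in CONV and TadA mutant, Cma1 in UCC2003 at a mean of 6.18, and C1qb and Csf1r in CONV, with the 2 Bifidobacterium groups between CONV and GF.

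Other mast cell genes did not follow a single pattern. Of the 25 genes on the mast cell list 7 had a value, 4 in the cluster table and 5 in the gene-level table, and limma called 0 of these in any of the 6 pairs of groups. At an unadjusted p under 0.05, CONV against GF had 3 of the 4 clusters and 2 of the 5 genes, TadA mutant against GF 1 and 2, and UCC2003 against GF 0 and 3. The same shares over all clusters and all gene-level genes were 13.2% and 28.1% in CONV against GF, 6.01% and 41.3% in TadA mutant against GF, and 7.96% and 54.3% in UCC2003 against GF. After adjustment, 1.89% of clusters and 3.46% of gene-level genes were called in CONV against GF, none of either in TadA mutant against GF, and 0.0214% and 0.279% in UCC2003 against GF. Median differences from GF over the mast cell clusters were 0.46 in CONV, 0.25 in TadA mutant and -0.03 in UCC2003, beside 0.01, 0.03 and 0.04 over all clusters. Over the mast cell genes of the gene-level table the order was another, at 0.16 in CONV, 0.09 in TadA mutant and 0.20 in UCC2003, beside -0.01, -0.01 and -0.10 over all its genes.

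Cpa3, whose product is stored with the Cma1 chymase in connective tissue mast cells, read 5.65, 5.90, 5.63 and 4.60 in the UCC2003 columns, and 4.44, 4.57, 4.86 and 4.68 in the GF columns. Only UCC2003 column 4 lay within the GF range. The mean was 4.80 ± 0.31 in CONV, 4.72 ± 0.12 in TadA mutant, 5.44 ± 0.58 in UCC2003 and 4.64 ± 0.18 in GF (SD, n = 4 each), and UCC2003 minus GF was 0.81 ± 0.22 (SE, limma adjusted p = 0.469). Mrgprb2, a receptor of connective tissue mast cells, ran the other way, at 3.57 ± 0.24 in UCC2003 against 4.34 ± 0.38 in GF, a difference of -0.77 ± 0.19 (adjusted p = 0.421). How far these low Mrgprb2 values stood above background is unknown. Il1rl1, the receptor for the alarmin IL-33 on mast cells and lymphoid cells, averaged 5.05 in CONV, 4.85 in TadA mutant, 4.50 in UCC2003 and 4.53 in GF among the clusters. Mcpt8, a protease of basophils, averaged 4.97, 4.61, 4.40 and 4.43 in the same order, and its CONV arrays lay above every GF array (difference 0.53 ± 0.16, adjusted p = 0.138). Tpsg1, a transmembrane tryptase, had group means between 6.60 and 6.81. Of the mast cell growth factors, Kitl, the ligand of the receptor KIT, averaged 7.29 in CONV, 7.58 in TadA mutant, 7.92 in UCC2003 and 7.36 in GF, and it was lower in CONV than in UCC2003 by a called difference of -0.62 ± 0.16 (limma adjusted p = 0.0498). Il25, a cytokine of tuft cells, had group means between 5.53 and 5.83. Kit, Fcer1a and Mcpt2, which define mast cells, were not analysed here.

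C1qb encodes the B chain of C1q, which starts the classical complement pathway. Its gene (ENSMUSG00000036905) lies on the minus strand of chromosome 4. The 250 bases before its start (RefSeq, GRCm38.p6, chr4:136886201-136886450, minus strand) are shown because C1qb was called in both tables. It was the only listed macrophage gene with a value in both, so no other could have been. Capitals mark GAGGAA, the core bound by the macrophage regulator PU.1.
C1qb: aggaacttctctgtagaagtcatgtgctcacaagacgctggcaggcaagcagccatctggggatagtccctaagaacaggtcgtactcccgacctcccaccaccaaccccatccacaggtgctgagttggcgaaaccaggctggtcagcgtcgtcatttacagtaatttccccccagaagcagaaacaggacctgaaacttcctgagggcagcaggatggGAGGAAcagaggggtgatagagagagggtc
This window held 1 match, which began 30 bases before the gene. GAGGAA or its reverse complement TTCCTC was present in 23.3% of the 32851 windows.

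The CONV arrays read 7.27, 7.22, 7.17 and 7.58 for C1qb. The TadA mutant arrays read 6.76, 6.85, 6.75 and 6.93, and the UCC2003 arrays 6.74, 6.84, 6.74 and 6.91. The GF arrays read 6.63, 6.63, 6.62 and 5.79. The groups formed 3 levels without overlap: CONV on top, the 2 Bifidobacterium groups together in the middle, and GF below, with GF replicate 4 far below the other GF arrays. Means were 7.31 ± 0.18 in CONV, 6.82 ± 0.085 in TadA mutant, 6.81 ± 0.084 in UCC2003 and 6.42 ± 0.42 in GF (SD, n = 4 each), and the limma F test over the 4 groups passed (adjusted p = 0.0485), as it did for 1.63% of clusters. For Cma1, Csf1r and Csf2 it did not (adjusted p = 0.454, 0.180 and 0.0797, beside 3.12% of gene-level genes called), nor for Mcpt1 (0.139). C1qb rose in CONV by 0.89 ± 0.16 log2 units over GF (SE, 1.85-fold, limma adjusted p = 0.0101). TadA mutant exceeded GF by 0.40 ± 0.16 (adjusted p = 0.813) and UCC2003 exceeded GF by 0.39 ± 0.16 (adjusted p = 0.618), and neither passed. TadA mutant minus UCC2003 was 0.01, with a 95% interval from -0.33 to 0.36.

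GF replicate 4 set part of these sizes. Without it CONV exceeded GF by 0.68 (adjusted p = 0.00319), TadA mutant by 0.19 and UCC2003 by 0.18. Also without it, the differences of CONV from UCC2003 (0.50, adjusted p = 0.00996) and from TadA mutant (0.49, adjusted p = 0.0163) passed, which they did not over all 16 arrays (adjusted p = 0.109 and 0.173). Pancreatic transcripts were present on GF replicates 2, 3 and 4. On arrays with them CONV exceeded GF by 1.05 (2 arrays against 3), and on arrays without them by 0.59 (2 against 1), with a single GF array whose spread is assumed to be that of the other groups, and there the call was lost (adjusted p = 0.320). In the gene-level table C1qb was called too, at 7.28 ± 0.12 in CONV against 6.73 ± 0.15 in GF, a smaller difference of 0.55 ± 0.10 (1.46-fold, adjusted p = 0.0359). The separate levels did not all hold there, because the lowest CONV column (7.10) lay below the highest UCC2003 column (7.18). The authors' deposited table gives C1qb a fold of 1.65 in CONV over GF, with p = 0.00713 and an adjusted p of 0.145.

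Csf1r (ENSMUSG00000024621, plus strand of chromosome 18) encodes the receptor for CSF-1 and IL-34. Its CONV columns read 6.72, 7.05, 6.70 and 6.89. The TadA mutant columns read 6.31, 6.34, 6.36 and 6.88, and the UCC2003 columns 6.41, 6.39, 6.54 and 6.55. The GF columns read 6.25, 6.21, 6.23 and 5.85, so every column of a colonised group lay above every GF column. Only TadA mutant column 4 reached the CONV range, and GF column 4 lay apart below. Means were 6.84 ± 0.17 in CONV, 6.47 ± 0.27 in TadA mutant, 6.47 ± 0.083 in UCC2003 and 6.13 ± 0.19 in GF (SD, n = 4 each). Csf1r rose in CONV by 0.71 ± 0.13 log2 units over GF (SE, 1.63-fold, limma adjusted p = 0.0471). That call lay close to the threshold and was lost when any 1 of 15 of the 16 columns was left out (adjusted p up to 0.199), though the difference stayed between 0.61 and 0.75. It passed only when TadA mutant column 4 was the one left out (adjusted p = 0.0132). Both Bifidobacterium groups exceeded GF by 0.34 ± 0.13 (adjusted p = 1 for each), and the TadA mutant value was 0.20 without column 4. TadA mutant minus UCC2003 was 0.00, with a 95% interval from -0.28 to 0.28.

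The macrophage list had 8 of 40 genes measured. In CONV against GF all 5 clusters and all 4 gene-level genes had higher means, and 3 in each table were called, beside 1.41% of all clusters and 2.73% of all gene-level genes called higher. The median difference was 0.66 over the clusters and 0.63 over the gene-level genes, beside 0.01 and -0.01 over all features. In TadA mutant against GF and UCC2003 against GF limma called 0 of the 9 values (before adjustment at p under 0.05, 1 and 2 of the 5 clusters, and 3 and 3 of the 4 gene-level genes, beside 6.01% and 7.96% of all clusters and 41.3% and 54.3% of all gene-level genes), with cluster medians of 0.40 and 0.39. Cd14, the co-receptor for bacterial lipopolysaccharide, read 10.68, 11.05, 10.62 and 10.90 on the CONV arrays, and 9.23, 9.05, 9.21 and 9.07 on the GF arrays. The groups were far apart, and Cd14 rose by 1.67 ± 0.12 (3.18-fold, limma adjusted p = 5.18e-06). TadA mutant and UCC2003 averaged 9.22 and 9.50, and CONV was also higher than each of them by a called difference (1.59 and 1.31). Fcgr3, an activating IgG receptor, averaged 6.19 ± 0.12 in CONV, 5.77 ± 0.19 in TadA mutant, 5.69 ± 0.12 in UCC2003 and 5.64 ± 0.19 in GF, and rose by 0.55 ± 0.12 in CONV over GF (adjusted p = 0.0253). Lgmn, a lysosomal protease, averaged 7.12 ± 0.16 in CONV, 6.47 ± 0.17 in TadA mutant, 6.38 ± 0.13 in UCC2003 and 6.14 ± 0.26 in GF, and rose by 0.98 ± 0.13 over GF (1.97-fold, adjusted p = 0.00321). Cd163, a scavenger receptor for haemoglobin, differed in CONV by only 0.23 ± 0.11 (adjusted p = 1), with its highest mean, 5.80, in UCC2003. Lyz1, a lysozyme known from mouse Paneth cells, averaged 7.81 in CONV, 7.67 in TadA mutant, 7.65 in UCC2003 and 7.15 in GF, with no call.

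**Figure D2:**
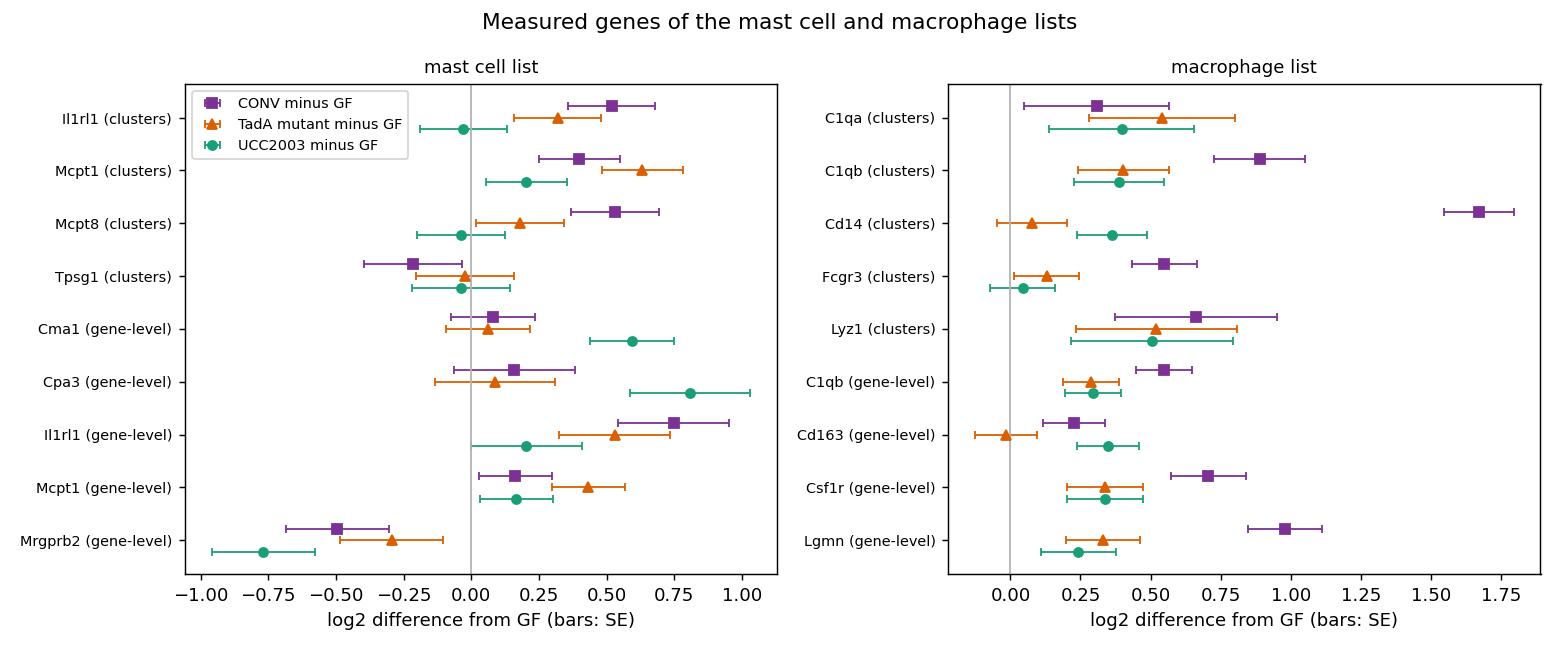
Log2 differences from GF (x axis, bars are SE) for the measured genes of the mast cell list (left) and the macrophage list (right), in CONV, TadA mutant and UCC2003. In CONV all macrophage values lay above 0, with Cd14 at 1.67, while the mast cell values lay on both sides of 0. In UCC2003 Cma1 and Cpa3 stood out above 0, at 0.59 and 0.81, and Mrgprb2 below it, at -0.77.

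C1qa, which encodes the A chain of the same C1q protein, did not follow the C1qb pattern. It averaged 7.20 ± 0.49 in CONV, 7.43 ± 0.42 in TadA mutant, 7.28 ± 0.23 in UCC2003 and 6.89 ± 0.36 in GF (SD, n = 4 each), its arrays overlapped between all groups compared with GF, and CONV minus GF was 0.31 ± 0.26 (limma adjusted p = 0.686). Of the 35 complement genes 7 had a value, and besides C1qb none was called against GF. C3ar1, the receptor for the C3a fragment, averaged 6.40 in CONV and 5.99 in GF (difference 0.42 ± 0.18, adjusted p = 0.339). Cd59a, an inhibitor of the membrane attack complex, averaged 5.42 ± 0.17 in CONV, 6.27 ± 0.54 in TadA mutant, 6.42 ± 0.20 in UCC2003 and 6.16 ± 0.45 in GF, and was lower in CONV than in UCC2003 by a called difference of -1.0 ± 0.25 (adjusted p = 0.0454). Cfd, the adipocyte protease of the alternative pathway, averaged 9.49 ± 0.91 in CONV and 10.32 ± 0.34 in GF (adjusted p = 0.388). C1ra, a protease of the C1 complex, differed from GF by 0.24 in CONV, 0.27 in TadA mutant and 0.10 in UCC2003. Cr2, a complement receptor of B cells, differed from GF by 0.92 ± 0.30 in CONV, 0.99 ± 0.30 in TadA mutant and 1.04 ± 0.30 in UCC2003 (adjusted p = 0.983, 0.895 and 0.505).

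B cell genes had higher means in all 3 colonised groups than in GF, although limma called 0 of the 5 measured in any of the 6 pairs of groups. Before adjustment 5 had a p under 0.05 in CONV against GF, 5 in TadA mutant against GF and 3 in UCC2003 against GF, and 0 in CONV against UCC2003 or against TadA mutant. The same shares over all gene-level genes were 28.1%, 41.3% and 54.3% against GF. For CONV they were 40.6% against UCC2003 and 29.1% against TadA mutant. The count of 3 of 5 in UCC2003 against GF thus lay near the share of all genes. The mean level of these 5 of 13 listed genes (Cd79a, Cd79b, Cr2, Fcmr and Ms4a1) ran from 5.81 to 6.88 over the CONV columns, 5.49 to 6.39 in TadA mutant and 5.53 to 6.51 in UCC2003, all above the 4.99 to 5.33 of GF, and its part in the C1qb and Csf1r differences was not tested. The smooth muscle level had its lowest mean in CONV, and with it as a covariate CONV exceeded GF by 1.02 for C1qb (adjusted p = 0.00950) and by 0.82 for Csf1r (adjusted p = 0.0939).

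Csf2 (ENSMUSG00000018916, minus strand of chromosome 11) encodes GM-CSF. The files used give no detection call, so how far its values stood above background is unknown. Its mean intensity over all columns was low, at 4.55, and only 17.5% of gene-level genes had a lower mean. Its CONV columns read 4.54, 5.18, 4.86 and 4.92, and its TadA mutant columns 5.03, 4.59, 5.19 and 4.63. The UCC2003 columns read 4.55, 4.31, 4.46 and 4.09, and the GF columns 3.99, 4.10, 4.10 and 4.18. CONV and TadA mutant lay above GF without overlap, and 1 UCC2003 column lay within the GF range. Means were 4.87 ± 0.26 in CONV, 4.86 ± 0.30 in TadA mutant, 4.35 ± 0.20 in UCC2003 and 4.09 ± 0.077 in GF (SD, n = 4 each). CONV exceeded GF by 0.78 ± 0.15 (SE, 1.72-fold) and missed the threshold narrowly (limma adjusted p = 0.0629, exact permutation p = 0.0286). TadA mutant exceeded GF by 0.77 ± 0.15 (1.70-fold), the 10th smallest p-value of its table in that comparison, with an adjusted p of 0.497. UCC2003 exceeded GF by 0.26 ± 0.15 (adjusted p = 1). TadA mutant lay above UCC2003 in every column, by 0.51 ± 0.15 (adjusted p = 1, exact permutation p = 0.0286), and CONV exceeded UCC2003 by 0.52 ± 0.15 with overlap (adjusted p = 0.463). CONV minus TadA mutant was 0.01, with a 95% interval from -0.31 to 0.34.

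Of the 10 colony-stimulating factors and receptors only Csf2 and Csf1r had a value, so the GM-CSF receptor and CSF-1 were not analysed here. Il7r and Ltb, genes of lymphoid cells, among which are known producers of GM-CSF, averaged 5.38 and 6.08 in CONV and 4.95 and 5.63 in GF, with no call.

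**Figure D3:**
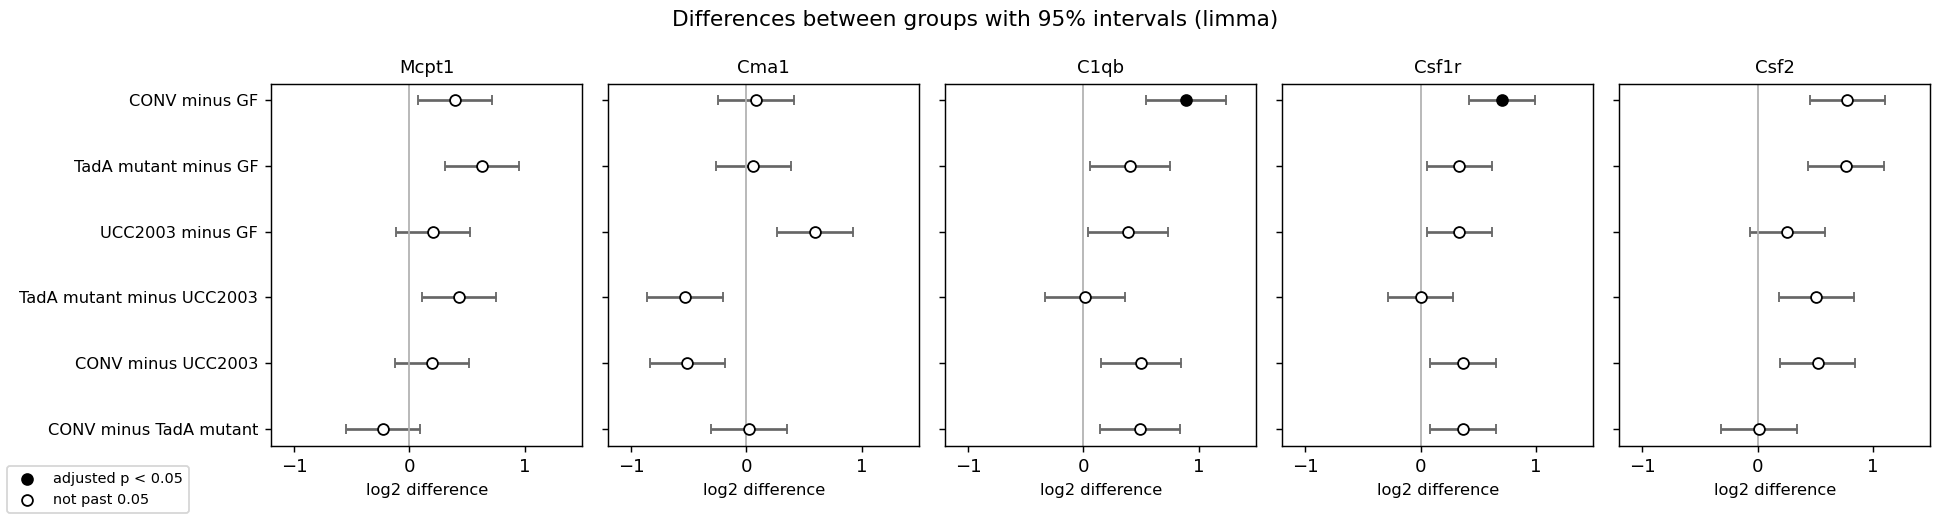
Log2 difference (x axis) with its 95% interval from limma for the 6 pairs of groups (rows), for each of the 5 genes. Filled points passed an adjusted p of 0.05: these were CONV minus GF for C1qb at 0.89 and for Csf1r at 0.71, and the other 28 differences did not pass.

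Over the 5 genes, each mean in CONV, TadA mutant and UCC2003 exceeded the GF mean. The 3 comparisons share the 4 GF arrays, so their directions are not independent. All 5 genes, Mcpt1 and C1qb included, were also in the table that the authors chose by a test over TadA mutant, UCC2003 and GF. Separation between those groups was therefore favoured by the choice. The clusters were not chosen in that way, so for those groups their shares are not a matched background. In CONV against GF 2 of 5 genes were called (4 before adjustment, beside 13.2% of clusters and 28.1% of gene-level genes) and 4 did not overlap, beside 4.61% of all clusters and 9.70% of the gene-level genes that lay higher without overlap. In TadA mutant against GF limma called 0 (4 before adjustment at p under 0.05, beside 6.01% of clusters and 41.3% of gene-level genes) and 4 did not overlap, beside 2.16% and 14.4%. In UCC2003 against GF 0 were called (3 before adjustment, beside 7.96% and 54.3%) and 3 did not overlap, beside 3.26% and 18.4%. Only Cma1 overlapped GF in CONV and in TadA mutant, and Mcpt1 and Csf2 overlapped it in UCC2003.

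Between the Bifidobacterium strains limma called 0 of the 5 genes, beside 0.00857% of clusters and 0.223% of gene-level genes, and 3 had a p under 0.05 before adjustment, beside 3.58% and 32.5%. The authors' choice of the gene-level genes covered both strains, so the cluster shares are not a matched background here either. Mcpt1 and Csf2 had higher means in TadA mutant, by 0.43 and 0.51, and Cma1 a lower one, by -0.53. The 95% intervals were 0.11 to 0.75 for Mcpt1, 0.18 to 0.84 for Csf2 and -0.86 to -0.20 for Cma1, before any adjustment. Csf2 alone did not overlap, beside 2.75% of clusters and 24.3% of gene-level genes in either direction. In CONV against UCC2003 and CONV against TadA mutant limma called 0 of the 5 genes, beside 3.03% and 1.40% of clusters and 4.13% and 1.28% of gene-level genes. Before adjustment 4 and 2 had a p under 0.05, beside 19.4% and 15.1% of clusters and 40.6% and 29.1% of gene-level genes.

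Within the gene-level table, C1qb and Csf1r varied together over the 16 columns, with a Pearson r of 0.84 and a Spearman rho of 0.79. Their r was 0.72 without the 2 columns farthest from the C1qb median, and 0.40 once group means were removed. Mcpt1 and Csf2 had an r of 0.67 (rho 0.70), which was 0.74 without 2 such columns and 0.59 within groups. Mcpt1 and Cma1, the neighbouring chymase genes, had an r of 0.00 (rho 0.08). Cma1 and Cpa3 had an r of 0.61 (rho 0.42), which was 0.10 within groups, so that it followed the group means. All these values share columns and group differences, and they are descriptions.

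**Figure D4:**
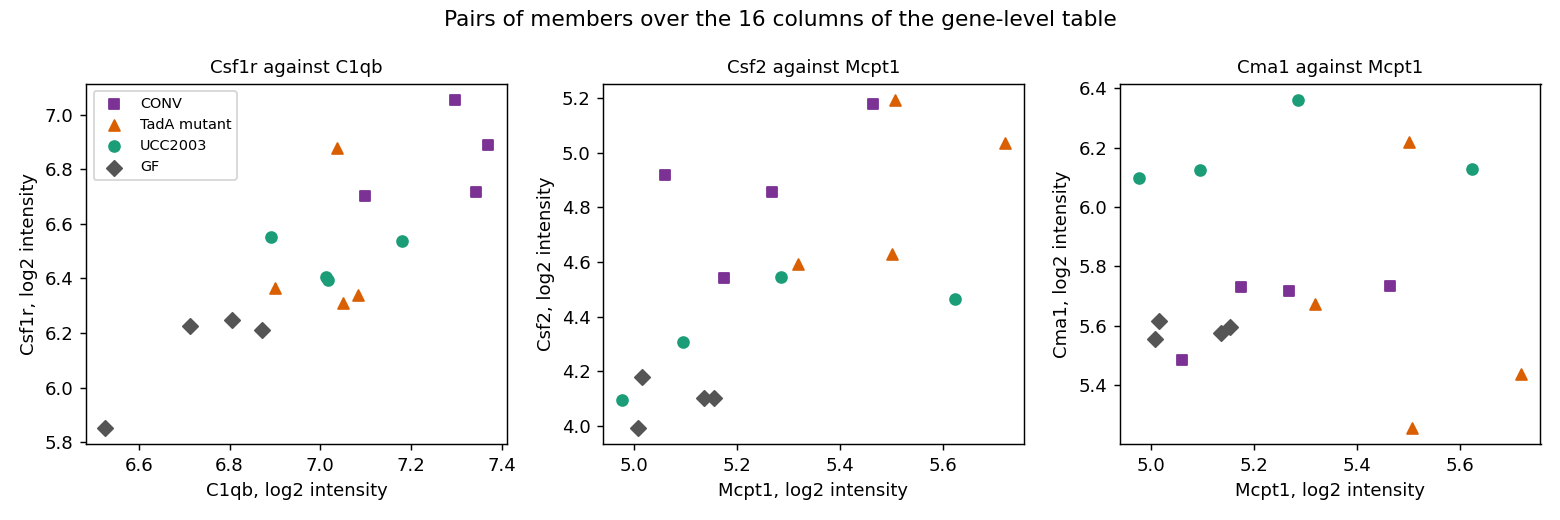
Pairs of genes over the 16 columns of the gene-level table, in log2 intensity on both axes, with a marker for each group. Csf1r followed C1qb (r = 0.84) with GF at the low end and CONV at the high end, Csf2 followed Mcpt1 less closely (r = 0.67), and Cma1 did not follow Mcpt1 (r = 0.00).

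The genes most like each of the 5 were found by Pearson r over 16 arrays among 1977 named clusters or 1792 gene-level genes. C1qb was most like Mrpl11, of the mitochondrial ribosome (r = 0.93), the leukocyte tetraspanin Cd53 (0.90) and the homeobox gene Hoxa9 (0.85), and without the 2 arrays farthest from its median these were 0.78, 0.77 and 0.75. Csf1r was most like Nckap1l, a haematopoietic actin regulator (0.92), Cyba, a subunit of the phagocyte oxidase (0.92), and Gvin1, an interferon-induced GTPase gene (0.90). Csf2 was most like the mitotic kinesin gene Kif20a (0.81), Il1rl1 (0.80) and Il2rg, the common cytokine receptor gamma chain (0.78), the last with an r of 0.24 within groups. Mcpt1 was most like the pre-B cell gene Vpreb3 (0.67), Il1rl1 (0.66) and Mlec (0.63). Cma1 was most like Vwf, the von Willebrand factor of endothelium (0.84), Zfp248 (0.77) and Fbxo45 (0.76). Il1rl1 thus stood among the 3 closest for both Mcpt1 and Csf2, each in its own table.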

How the data were processed

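Affymetrix Mouse Exon ST 1.0 arrays of 16 colons were used. Per the submitters' processing notes, the authors made the deposited log2 intensities with Affymetrix Expression Console 1.1, RMA, Partek and mm9. The authors' deposited comparison table gives a signed fold score with a p-value each. The deposited gene-level table holds log2 values. How it was summarised is not given in the sources used here. The number of arrays limits the precision.

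Group differences came from 1 limma 3.58.1 model (R 4.3.3) over all 16 arrays, two-sided, adjusted by Benjamini-Hochberg over 23332 clusters, or for the gene-level table over 35860 tests, the number that a pass rate of 0.05 needs to leave 1793. Single values had an exact permutation test over 70 splits. The procedure was tested on simulated data.

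The 5 genes, the marker lists and the tests were chosen with earlier results of these data known. Named were the 5 genes, all measured genes of a described list where a table held 6 or fewer, the 3 most alike genes by Pearson r, and markers of other cells. Promoters were from RefSeq. Replicate numbers did not pair arrays: same-numbered arrays' deviations correlated at a median of -0.04 over 24 pairs of arrays. Alternatives were normalisation, samples in the fit, moderation, filtering, covariates and left-out arrays.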

Additional observations from a re-analysis of the deposited data

Results flagged for a closer look

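In 5 of the 20 sets of 4 values that make up the 5 genes and 4 groups, 1 value lay far from the other 3. Chance marks about 1 in 20 sets in this way, but sets of different genes share arrays or columns and are not independent. They were the C1qb value of 5.79 on GF replicate 4, the Csf1r value of 5.85 in GF column 4, the Csf1r value of 6.88 in TadA mutant column 4, the Cma1 value of 6.36 in UCC2003 column 1 and the Cma1 value of 5.48 in CONV column 4. The C1qb value was the farthest, with a gap to the nearest other GF array equal to 0.990 of the range of its group. Removing it left the CONV rise over GF called, as given above. The Csf1r value in TadA mutant column 4 was the only column whose removal kept the Csf1r call in CONV against GF. The labels do not say whether GF column 4 holds the same animal as GF replicate 4. C1qb was also lowest in GF column 4 of the gene-level table, at 6.53, and a match by values was not tested.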

How the results depend on the processing

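The direction held in every alternative for the 2 calls. C1qb in CONV over GF lost its call with only the compared groups in the fit (0.89, adjusted p = 0.163) and without the arrays with pancreatic transcripts (0.59, a single GF array), and leaving out 1 array gave 0.68 to 0.96, called each time. Csf1r in CONV over GF lost it with only the compared groups (0.71, adjusted p = 0.295), in the ordinary fit without moderation (0.71, adjusted p = 0.112) and with smooth muscle as a covariate (0.82), and leaving out 1 column gave 0.61 to 0.75. Csf2 in CONV over GF gained a call after quantile normalisation (0.81, adjusted p = 0.0327), and leaving out 1 column gave 0.68 to 0.89. It passed without CONV column 1 (0.89, adjusted p = 0.0297) and without TadA mutant column 3 (adjusted p = 0.0484). Adjusted over the gene-level table alone, which takes no account of how its genes were selected, calls were gained by Cma1 in UCC2003 minus GF (0.59) and CONV minus UCC2003 (-0.51), and by Csf2 in CONV minus GF (0.78), TadA mutant minus GF (0.77) and CONV minus UCC2003 (0.52).

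Taken alone, 14 other differences reached the smallest exact permutation p of 0.0286, with no adjustment. These were Mcpt1 in CONV minus GF (0.40) and TadA mutant minus GF (0.63). C1qb did so in TadA mutant minus GF (0.40), UCC2003 minus GF (0.39), CONV minus UCC2003 (0.50) and CONV minus TadA mutant (0.49). Cma1 did so in UCC2003 minus GF (0.59) and CONV minus UCC2003 (-0.51). Csf1r did so in TadA mutant minus GF (0.34), UCC2003 minus GF (0.34) and CONV minus UCC2003 (0.37). Csf2 did so in CONV minus GF (0.78), TadA mutant minus GF (0.77) and TadA mutant minus UCC2003 (0.51). This p means no more than that the groups did not overlap. In CONV minus UCC2003 that held, in either direction, for 11.8% of clusters and 23.4% of gene-level genes. In CONV minus TadA mutant the shares were 9.63% and 15.4%. Those of the other pairs are given above, and the authors' choice favoured separation between TadA mutant, UCC2003 and GF.

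Some differences that were not called changed sign. These were Mcpt1 in CONV minus UCC2003, at 0.20 among the clusters and -0.0034 in the gene-level table, C1qb in TadA mutant minus UCC2003 without pancreatic arrays (-0.063) and in the gene-level table (-0.0072), Cma1 in CONV minus TadA mutant with smooth muscle as a covariate (-0.091), and Csf1r in TadA mutant minus UCC2003 after median centring (-0.051) and quantile normalisation (-0.036). Leaving out 1 array or column gave -0.022 to 0.048 for C1qb and -0.13 to 0.054 for Csf1r in TadA mutant minus UCC2003, -0.13 to 0.19 for Cma1 in TadA mutant minus GF, -0.11 to 0.21 for Cma1 and -0.089 to 0.12 for Csf2 in CONV minus TadA mutant, and 0.41 to 0.55 and 0.40 to 0.53 for C1qb in CONV minus UCC2003 and CONV minus TadA mutant. The cause was not tested.

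With the replicate number as a replicate block C1qb stayed called in CONV over GF (0.89, adjusted p = 0.0400), and no Mcpt1 or C1qb call changed. Columns without replicate numbers and the lack of pancreatic genes left these alternatives not run in the gene-level table. The mean over several rows of a symbol was not run because each symbol had 1 row, and Csf2 was among the features that the filter on the lowest mean values left out.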

Other observations

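Genes of other granulocytes had wide spreads and no call by limma. S100a8, a calcium-binding protein of neutrophils, averaged 6.20 ± 1.79 in CONV, 4.14 ± 0.75 in TadA mutant, 4.77 ± 0.90 in UCC2003 and 5.01 ± 1.13 in GF (SD, n = 4 each). Ccr3, the eotaxin receptor of eosinophils, averaged 4.60 ± 0.29 in CONV, 4.08 ± 0.22 in TadA mutant, 3.83 ± 0.62 in UCC2003 and 4.06 ± 0.43 in GF. Elane, which encodes neutrophil elastase, had group means between 5.66 and 5.86, and it was the only measured gene of 14 listed granule proteases of lymphocytes and neutrophils.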
